A study of Mus musculus with 21 samples.

Results

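Cells of the NM18 line treated for 40 h with TGF-b1 (transforming growth factor beta 1) were compared with untreated NM18 cells, across all 12393 genes measured on 6 of the 21 Affymetrix mouse arrays in the series. Both groups, of 3 arrays each, carried the same scrambled control siRNA (ns-siRNA, 25 nM) for 48 h. In the treated group 5 ng/ml TGF-b1 was added 8 h after transfection. NM18 cells are a clone of NMuMG, an established line of mouse mammary gland epithelium, so the values describe 1 clone in culture. The labels name no vehicle in the control group, and a free-text remark on its array 1 also mentions TGF-b1. The title and treatment label of that array name none and were followed. The remaining 3 arrays of the same table, from cells with FoxQ1 siRNA and TGF-b1, served only to estimate the spread. The series design calls the replicates biological. The other 12 arrays came from NMuMG cells, of which 6 (total RNA, with or without TGF-b1 for 2 h) are set beside the 40 h values at the end.

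TGF-b1 is a secreted factor that binds a pair of receptor kinases at the cell surface, which phosphorylate SMAD proteins. These enter the nucleus with SMAD4 and switch genes on or off together with other transcription factors, among them genes of inhibitors that dampen the pathway. In mammary epithelial cells TGF-b1 is known to slow division and to drive the epithelial-mesenchymal transition, in which cells loosen their junctions, build contractile actin fibres and lay down matrix.

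The values are deposited log2 expression levels per probe set, read as log2 from their range of 4.57 to 14.59. Each gene is represented by its probe set of highest mean across the table's 9 arrays. A difference of 1 on this scale is 2-fold, values after ± are standard errors, and levels of different genes were not ranked against each other. Group differences were tested with limma's moderated test, and a gene was called at a Benjamini-Hochberg adjusted p under 0.05 over all 12393 genes. The cells carried the keratins of simple epithelium: Krt8 stood at 14.34 and Krt18 at 14.40 in the controls, and Cdh1 (E-cadherin) at 12.26. Epcam and Cldn7, which mark many epithelia, stood at 6.09 and 5.78, and no detection calls were used that would tell whether such low signals were above background. Array medians lay between 7.36 and 7.42. On the first principal component, which held 67.3% of the variance of the 9 arrays, the controls were at -35.7, -26.9 and -35.4 and the TGF-b1 arrays at 7.54, 7.48 and 9.99. Control array 2 thus lay nearest the treated cells. In 25 of the 30 leading genes, the largest rises and falls, it was the control closest to the TGF-b1 level. Over all called genes this held for 63.2% of the risen and 54% of the fallen. TGF-b1 array 2 was the treated array closest to the controls in 24 of the 30, and in 43.7% of all risen and 35.1% of all fallen genes. Without control array 2, 1654 genes were called higher and 2087 lower. Without control array 1, whose remark names TGF-b1, the counts were 1315 and 1916.

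TGF-b1 changed 3807 genes: 1642 (13.2%) rose and 2165 (17.5%) fell. With the replicate number as a block in the fit, 2106 rose and 2679 fell. Of the 3807 genes, 178 rose and 269 fell at least 2-fold, and 30 rose and 36 fell at least 4-fold. The median change of called genes was 0.45 in size, and that of all genes was 0.00. Most calls separated the groups completely. All 3 TGF-b1 arrays lay above all 3 controls in 1613 of the risen genes and below them in 2128 of the fallen genes. The groups overlapped in 66 called genes. The calls rest on the same arrays, so this separation is not separate support for them. Fewer cells of a kind and less RNA per cell cannot be told apart in such arrays.

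**Figure D1:**
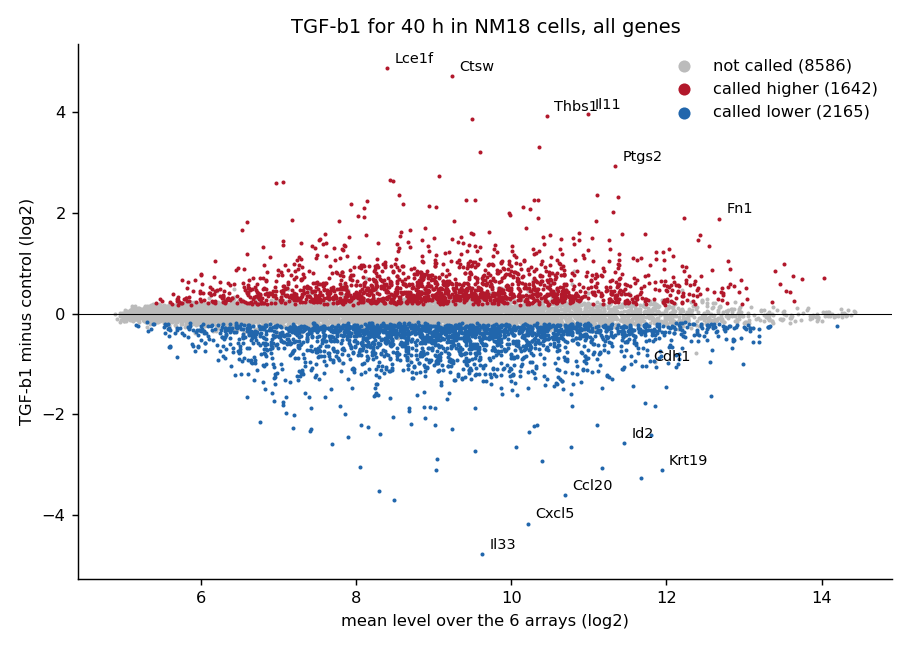
Change in NM18 cells after 40 h of TGF-b1 for each of the 12393 genes. The horizontal axis is the mean level over the 6 arrays (log2), the vertical axis is the mean of 3 TGF-b1 arrays minus the mean of 3 control arrays (log2), and colours mark the 1642 genes called higher, the 2165 called lower and the 8586 not called. Lce1f has the largest rise (4.87) and Il33 the largest fall (-4.78).

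The leading rises and falls were picked among called genes whose groups did not overlap, so their lack of overlap follows from the choice. The largest rise in signal was that of Lce1f, a late cornified envelope gene known from skin. It read 5.91, 5.94 and 6.05 in the controls and 11.21, 10.40 and 10.90 with TGF-b1. Every TGF-b1 array lay far above every control, and the change was 4.87 ± 0.26 (adjusted p = 1.7e-06, limma). Its control signal may lie near background, as may those of Speg (5.67) and Prg4 (5.75), named further on, so the size of these rises is that of the signal on the array. Its relative Lce1h rose by 3.22 ± 0.26. Members of this family are near copies of each other, so how the signal divides between them is uncertain. Ctsw, a cysteine protease known from cytotoxic lymphocytes, read 6.54, 7.40 and 6.69 in the controls and 11.77, 10.96 and 12.06 with TGF-b1. Its groups were also far apart, with a change of 4.72 ± 0.43. Il11, a cytokine of the gp130 family, read 8.26, 10.48 and 8.28 in the controls and 13.04, 12.63 and 13.22 with TGF-b1. The groups did not overlap, but control array 2 was the highest control by a wide margin. The Il11 change was 3.96 ± 0.50 (adjusted p = 0.000136) and 4.69 without control array 2. Thbs1, a matrix glycoprotein that can activate latent TGF-b, read 7.98, 9.03 and 8.48 in the controls and 12.57, 11.91 and 12.78 with TGF-b1 and rose by 3.92 ± 0.29. Ptgs2, the inducible cyclooxygenase of prostaglandin synthesis, read 9.60, 10.42 and 9.60 in the controls and 12.84, 12.66 and 12.91 with TGF-b1 and rose by 2.93 ± 0.18. In both genes the lowest TGF-b1 array was more than 2 above the highest control.

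Other leading rises included genes of muscle, signalling and matrix. Ak1, an adenylate kinase abundant in muscle, rose by 3.86 ± 0.24, Speg, a kinase of striated muscle, by 2.59 ± 0.34, Chrna1, the alpha subunit of the muscle acetylcholine receptor, by 2.74 ± 0.33, and Fbxo32, a muscle ubiquitin ligase subunit, by 2.36 ± 0.17. The LIM-domain gene Lmcd1 rose by 3.31 ± 0.26, the ligand Wnt7a by 2.66 ± 0.16 and Prg4, the joint lubricant lubricin, by 2.62 ± 0.15. Spsb1, an adaptor of ubiquitin ligases, rose by 2.64 ± 0.15. Ctla2a, an inhibitor-like relative of cathepsins, rose by 2.36 ± 0.26, and its near copy Ctla2b may share its signal. When all probe sets of a gene were averaged, the changes were 2.31 for Ak1, 1.38 for Spsb1 and 0.97 for Speg, all still called.

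The largest fall was that of Il33, an alarmin of the interleukin-1 family stored in epithelial nuclei, which read 12.26, 11.34 and 12.45 in the controls and 7.18, 7.32 and 7.21 with TGF-b1. The change of -4.78 ± 0.25 (adjusted p = 1.7e-06) is a 27.5-fold lower level. Cxcl5, a chemokine that attracts neutrophils, read 12.43, 12.06 and 12.40 in the controls and 8.47, 8.26 and 7.66 with TGF-b1 and changed by -4.17 ± 0.28. Ccl20, which attracts cells with the receptor CCR6, read 12.66, 11.94 and 12.89 in the controls and 9.24, 8.30 and 9.13 with TGF-b1 and changed by -3.61 ± 0.27. No TGF-b1 array reached a control in any of these 3 genes. Krt19, a keratin of simple epithelium, read 13.51, 13.27 and 13.71 in the controls and 10.06, 10.86 and 10.24 with TGF-b1 and changed by -3.11 ± 0.24. Array 2 of the treated cells was the highest in its group, but still far below the lowest control.

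Other leading falls included lectins, membrane proteins and enzymes. Lgals4 and Lgals2, galectins of the gut lining, changed by -3.52 ± 0.49 and -3.26 ± 0.32, and the tetraspanin Tspan8 by -3.07 ± 0.22. For Lgals4 control array 2 was the lowest control at 9.09, against 10.40 and 10.70. Among the enzymes were Ugt2b34, a glucuronosyltransferase (-3.70 ± 0.59), Gsta4, a glutathione transferase (-2.93 ± 0.52), Cyp2s1, a cytochrome P450 (-2.89 ± 0.13), Aldh1a1, which makes retinoic acid (-2.73 ± 0.53), and Vnn1, a pantetheinase (-2.65 ± 0.28). Sec16b, which organises exit sites of the endoplasmic reticulum, changed by -3.05 ± 0.21, and Ermp1, an endoplasmic reticulum peptidase, by -3.10 ± 0.15.

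**Figure D2:**
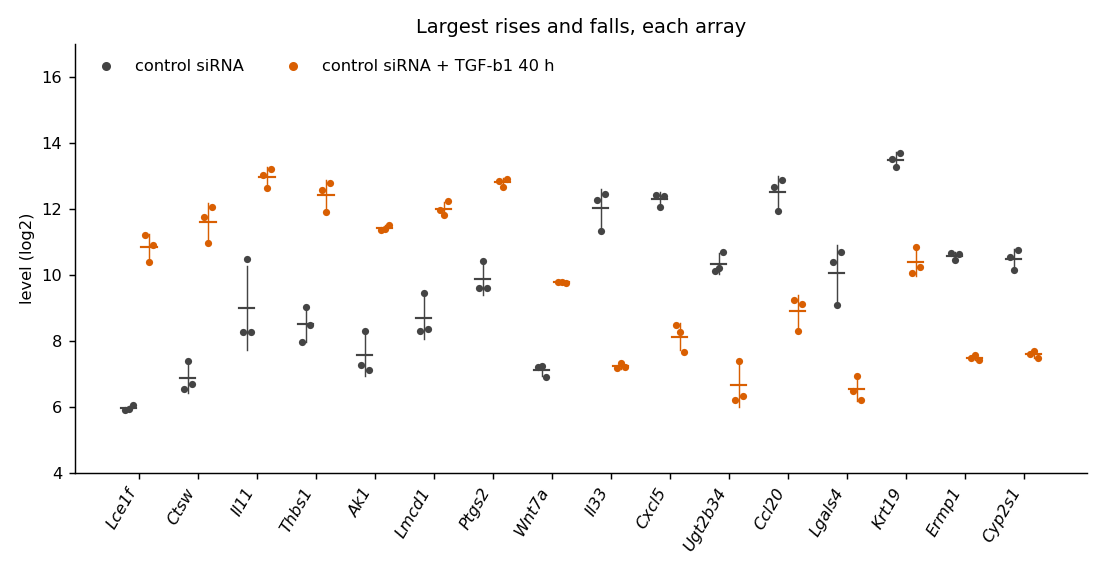
Level of 8 of the largest rises and 8 of the largest falls on each array. The vertical axis is the log2 level, each point is 1 array (3 control and 3 TGF-b1 arrays), horizontal bars are group means and vertical lines the SD. The groups do not overlap in any of the 16 genes, as the choice of genes required. Il11 shows 1 control array (10.48) above the other controls (8.26 and 8.28).

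Of 54 measured genes of the SMAD pathway, 15 rose (27.8%) and 7 fell (13%). Over all genes 13.2% rose and 17.5% fell, and each list count below is to be read beside these shares. The median change of the list was 0.05 against 0.00 for all genes. Among ligands, Inhba, the activin subunit, rose by 2.13 ± 0.26, Tgfb1 itself by 0.31 and Tgfb2 stood at 0.46 without being called (adjusted p = 0.0586). Bmp4 (-1.21 ± 0.17) and the activin subunit Inhbb (-0.96 ± 0.08, or -0.62 with all probe sets averaged) fell. Bmp1, a protease that trims procollagen despite its name, rose by 2.26 ± 0.17, or by 1.39 with all its probe sets averaged. Ltbp1, which holds latent TGF-b in the matrix, rose by 1.61. Among receptors, Tgfbr1 rose by 1.07, Acvr1 by 1.47 ± 0.10 and Bmpr2 by 0.79 ± 0.09, while Tgfbr2 (0.04) and Tgfbr3 (0.05) were not called. The signalling SMADs Smad2 (-0.04), Smad3 (0.05) and Smad4 (-0.05) were not called either, whereas Smad1 (0.32) and Smad5 (0.60), which act for bone morphogenetic proteins, rose.

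Several inhibitors of the pathway rose. Smad7, which targets the receptor for degradation, read 8.70, 9.14 and 9.34 in the controls and 10.01, 9.73 and 10.27 with TGF-b1 and rose by 0.94 ± 0.19 (adjusted p = 0.00259). All TGF-b1 arrays were above all controls. Ski (1.17 ± 0.07) and Skil (1.00), which repress SMAD targets, and Pmepa1 (1.19 ± 0.10), which sequesters SMADs, also rose, as did the repressor Tgif1 (0.75). Bambi, a decoy receptor, fell (-0.40 ± 0.08), and Smad6 at -0.17 was not called.

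Id proteins bind basic helix-loop-helix factors and keep them from DNA. Id2 read 12.76, 12.57 and 12.90 in the controls and 10.03, 10.36 and 10.14 with TGF-b1. Id1 read 12.46, 12.41 and 12.95 in the controls and 10.71, 10.86 and 10.94 with TGF-b1. Id3 read 9.01, 9.23 and 9.43 in the controls and 8.42, 8.38 and 8.48 with TGF-b1. All 3 genes were lower on every TGF-b1 array than on any control. The changes were -2.57 ± 0.17 for Id2, -1.77 ± 0.15 for Id1 and -0.80 ± 0.14 for Id3, with adjusted p of 2.69e-06, 1.11e-05 and 0.00103, while Id4 stood at 0.03 and was not called.

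Transcription factors that drive the epithelial-mesenchymal transition split into members that moved and members that did not pass the test. Of 27 measured, 10 rose and 3 fell, and the median was 0.16. Zeb1, a repressor of Cdh1, read 8.81, 9.29 and 8.83 in the controls and 9.89, 9.85 and 9.94 with TGF-b1. The groups did not overlap, the change was 0.91 ± 0.12 (adjusted p = 0.000192), and it was 0.48 with all probe sets averaged. Zeb2 read 7.57, 7.98 and 7.29 in the controls and 8.88, 8.29 and 8.36 with TGF-b1, so control array 2 came closest to the TGF-b1 arrays and the groups did not overlap. Its change of 0.90 ± 0.24 (adjusted p = 0.0145) was not called without TGF-b1 array 1 (adjusted p = 0.0678), and the same held without control array 3 and with limma's robust setting. The Snail genes gave small values: Snai1 0.16 ± 0.08 (adjusted p = 0.191), Snai2 0.25 ± 0.09 (adjusted p = 0.0597) and Snai3 -0.24 ± 0.08 (adjusted p = 0.0433). Snai1 read 5.91, 5.98 and 5.71 in the controls and 6.14, 5.92 and 6.03 with TGF-b1, and its groups overlapped. These Snai1 signals lay under the lower quartile of gene levels (6.17) and may lie near background, so a change could have gone unseen. Snai2 was called without control array 3 and with each array centred on its median, and Snai3 lost its call under 7 alternatives, leaving out control array 1 among them (adjusted p = 0.164). Twist1 (0.05) and Twist2 (-0.11) were not called.

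Foxq1, the forkhead factor that the series studies, read 7.91, 8.49 and 8.38 in the controls and 9.08, 9.04 and 9.33 with TGF-b1. All TGF-b1 arrays exceeded all controls, and the rise was 0.89 ± 0.16 (adjusted p = 0.00164). Hmga2, a chromatin protein that works with SMADs at Snail genes, rose by 0.61 ± 0.13, Ets1 by 0.60 ± 0.12, Tcf4, an E-protein, by 0.57 ± 0.08 and Yap1, the effector of the Hippo pathway, by 0.38 ± 0.07. Sox4 (0.50), Runx1 (0.53) and Junb (0.75) rose too. Ets2 (-1.36 ± 0.08) and the AP-1 member Fosl1 (-1.02 ± 0.19) fell.

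Of 31 measured regulators and markers of epithelial identity, 10 fell and 2 rose, with a median of 0.00. The mucin Muc1 changed by -2.38 ± 0.19, the epithelial ETS factor Ehf by -2.0, the secreted lipocalin Lcn2 by -1.66 ± 0.22, Foxa2 by -1.34 ± 0.13, Klf5 by -1.33 and Cebpa by -1.24 ± 0.13. Spint2, an inhibitor of membrane serine proteases, changed by -0.72 ± 0.09. Splicing and transcription factors that hold the epithelial programme were not called: Esrp1 0.19 ± 0.08 (adjusted p = 0.0981), Esrp2 0.12 ± 0.07, Ovol1 0.10, Ovol2 0.10 and Grhl2 0.00. Esrp1 read 5.66, 5.49 and 5.66 in the controls and 5.93, 5.78 and 5.67 with TGF-b1, and was called without TGF-b1 array 3 (adjusted p = 0.0486). These Esrp1 signals lay under the lower quartile of gene levels (6.17) and may lie near background, so a fall could have gone unseen. The 2 that rose were the serine protease Prss22 (0.78 ± 0.11) and Foxa1 (0.31 ± 0.11), and Foxa1 lost its call under other settings (adjusted p up to 0.182). The count of risen members was 1 without any 1 of the 3 control arrays, without TGF-b1 array 1, without array 1 of the FoxQ1 siRNA group, and with quantile scaling or the most variable probe set.

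Cadherins changed in opposite directions. Cdh1, which joins epithelial cells at adherens junctions, read 12.20, 12.16 and 12.42 in the controls and 11.07, 11.27 and 11.32 with TGF-b1. Cdh2 (N-cadherin), the cadherin of mesenchymal and nerve cells, read 10.68, 10.92 and 10.74 in the controls and 11.58, 11.47 and 11.58 with TGF-b1. Neither gene's groups overlapped. Cdh1 changed by -1.04 ± 0.09 (adjusted p = 1.04e-05), which leaves its level at 11.22, and Cdh2 by 0.77 ± 0.09 (adjusted p = 8.88e-05). Of 21 adherens junction genes 9 rose and 2 fell, or 4 without array 2 of the FoxQ1 siRNA group, with a median of 0.10. The rises included Cdh6 (1.06 ± 0.16), Pcdh7 (1.31 ± 0.18, or 0.69 with all probe sets averaged), the nectin Nectin3 (0.89 ± 0.14), Jup (plakoglobin, 0.59 ± 0.11) and Ctnnd1 (p120 catenin, 0.60), and Cdh16 fell (-0.71 ± 0.13). Ctnnb1 (beta-catenin, -0.19) and Ctnna1 (0.03) were not called.

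Of 42 tight junction and polarity genes, 15 fell (35.7%, against 17.5% of all genes) and 7 rose (16.7%, against 13.2%), with a median of 0.00. Ocln (occludin), a transmembrane protein of the seal, read 8.91, 8.92 and 9.09 in the controls and 8.27, 8.47 and 8.58 with TGF-b1 and changed by -0.53 ± 0.09 (adjusted p = 0.000886). All TGF-b1 arrays were below all controls. The plaque proteins Tjp1 (-0.46 ± 0.07), Magi1 (-0.71 ± 0.10), Magi3 (-0.77 ± 0.12) and Patj (-0.61 ± 0.11) fell, as did Marveld2 (-0.46), the polarity genes Crb3 (-0.41), Llgl2 (-0.58) and Scrib (-0.34), and Cldn2, a pore-forming claudin (-1.03 ± 0.12). Cldn4, a barrier-forming claudin, went the other way. It read 6.37, 6.36 and 6.02 in the controls and 8.27, 7.64 and 8.41 with TGF-b1 and rose by 1.85 ± 0.20 (adjusted p = 5.31e-05), with every TGF-b1 array above every control. F11r rose by 0.63 ± 0.09 and Pard3, a polarity scaffold, by 0.36 ± 0.07. Cldn3 (0.11 ± 0.09), Cldn1 (0.02) and Cldn7 (0.12) were not called. With all probe sets averaged the changes were -0.38 for Magi1, -0.49 for Magi3 and 0.34 for F11r.

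Of 34 genes of desmosomes, keratins and other intermediate filaments, 6 rose (17.6%, against 13.2% of all genes) and 3 fell (8.82%, against 17.5%). Without control array 1 the risen were 3. Besides Krt19, the falls were the desmosomal cadherin Dsg2 (-0.89 ± 0.10) and Ppl (periplakin, -1.20 ± 0.09). The plakophilins Pkp1 (0.97 ± 0.15) and Pkp2 (0.83 ± 0.09), Dst (dystonin, 1.53 ± 0.23) and Dsp (desmoplakin, 0.57 ± 0.15) rose. Pkp2 was not called with its most variable probe set (0.41, adjusted p = 0.419), Dst was 0.60 with all probe sets averaged, and Dsp was not called without control array 1 (adjusted p = 0.0506). Vim (vimentin), the filament protein of mesenchymal cells, read 13.80, 13.77 and 13.75 in the controls and 13.87, 13.84 and 13.85 with TGF-b1. The groups did not overlap, yet the difference of 0.08 ± 0.05 was not called (adjusted p = 0.331). Krt8 (-0.02 ± 0.07) and Krt18 (0.05 ± 0.08) were not called. Vim, Krt8 and Krt18 all stood near the highest value measured (14.59), where the array may understate a change.

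**Figure D3:**
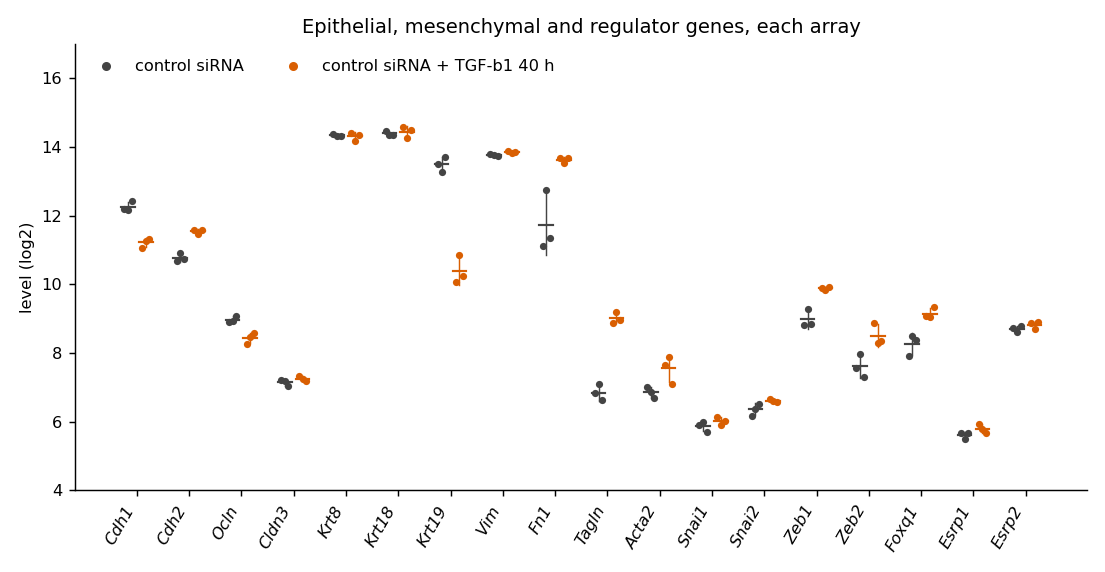
Level of 18 epithelial, mesenchymal and regulator genes on each array. The vertical axis is the log2 level, each point is 1 array, horizontal bars are means of 3 arrays and vertical lines the SD. Cdh1, Ocln and Krt19 are lower and Cdh2, Fn1, Tagln, Zeb1 and Foxq1 higher on every TGF-b1 array, while Vim, Krt8, Krt18, Snai1, Esrp1 and Esrp2 were not called.

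Genes of the contractile and actin machinery were more often higher than lower: 32 of 57 rose, 7 fell and 18 were not called, with a median of 0.42 against 0.00 for all genes. Tagln (transgelin), an actin-binding protein of smooth muscle, read 6.82, 7.10 and 6.62 in the controls and 8.89, 9.19 and 8.97 with TGF-b1 and rose by 2.17 ± 0.14 (adjusted p = 2.49e-06). Acta1, skeletal muscle actin, read 7.19, 7.13 and 6.86 in the controls and 8.91, 9.35 and 9.21 with TGF-b1 and rose by 2.10 ± 0.13. Both genes were higher on every TGF-b1 array. Acta2, smooth muscle actin, read 7.02, 6.86 and 6.69 in the controls and 7.65, 7.90 and 7.11 with TGF-b1. Its TGF-b1 arrays were spread more widely than its controls, but the groups did not overlap. The rise of 0.70 ± 0.17 (adjusted p = 0.00779) was 0.30 with all probe sets averaged.

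Genes of focal adhesions and stress fibres were among those that rose. Palld (palladin) rose by 2.08 ± 0.15, Zyx (zyxin) by 1.84 ± 0.14, Pdlim7 by 1.56 ± 0.12, Csrp1 by 1.59, Fhl2 by 0.95 ± 0.06, Actn1 (alpha-actinin) by 0.88, Flna (filamin A) by 0.68, Vcl (vinculin) by 0.66, Tln1 (talin) by 0.62 and Tpm1 (tropomyosin) by 0.52. Pdlim7 was 0.71 with its most variable probe set. Msn (moesin, 0.94), which links actin to the membrane, rose, whereas its relative Ezr (ezrin), known from microvilli, fell (-0.53 ± 0.08, or -0.26 with all probe sets averaged). The other falls included the myosin light chain kinase Mylk (-1.23 ± 0.14, or -0.78 with all probe sets averaged), Lmo7 (-1.15 ± 0.12), Fhl1 (-1.06 ± 0.15) and Lima1 (-1.02 ± 0.17). Cytoplasmic actins Actb (0.08) and Actg1 (0.10) were not called.

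Serum response factor, the product of Srf (which rose by 0.72), is known to bind the CArG box in promoters of contractile genes. RefSeq promoter windows (250 bases before to 50 after a transcription start, GRCm38.p6) were at hand for 29 of the 32 risen genes. A CArG box, searched on both strands, lay in 8 of their 39 windows (20.5%) and in 1.63% of all 32851 windows. The list was drawn up to hold many known targets of this factor, so a higher share than in all windows was built in. List members that were not called were not counted apart, and a link of the box to the TGF-b1 change was not tested. The promoters of Acta1 (chr8:123894726-123895025, minus strand) and Cnn2 (calponin 2, chr10:79988350-79988649, plus strand, a rise of 1.28) show where the box lies in the 5′ to 3′ sequence of the gene's strand, with its bases in capitals.
Acta1: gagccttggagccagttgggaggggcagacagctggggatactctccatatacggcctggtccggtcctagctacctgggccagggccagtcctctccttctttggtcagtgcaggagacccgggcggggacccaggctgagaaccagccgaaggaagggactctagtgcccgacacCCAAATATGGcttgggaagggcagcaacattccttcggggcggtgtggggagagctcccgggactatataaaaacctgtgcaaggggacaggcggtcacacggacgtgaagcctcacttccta
Cnn2: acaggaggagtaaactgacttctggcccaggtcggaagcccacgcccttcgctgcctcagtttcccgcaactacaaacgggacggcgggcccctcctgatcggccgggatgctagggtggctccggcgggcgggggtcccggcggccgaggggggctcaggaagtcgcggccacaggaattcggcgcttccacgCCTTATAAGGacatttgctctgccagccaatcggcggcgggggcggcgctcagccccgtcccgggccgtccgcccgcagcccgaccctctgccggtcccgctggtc

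Of 57 extracellular matrix genes, 17 rose and 1 fell, or 2 with the replicate number as a block and 3 with all probe sets averaged, with a median of 0.08. Fn1 (fibronectin), the main adhesive protein of early matrix, read 11.10, 12.75 and 11.36 in the controls and 13.67, 13.53 and 13.68 with TGF-b1. Control array 2 was well above the other controls but still below every TGF-b1 array. The rise was 1.89 ± 0.32 (adjusted p = 0.000873) and 2.39 without control array 2. Basement membrane collagens Col4a1 (1.22 ± 0.13) and Col4a2 (1.19), the anchoring fibril collagen Col7a1 (1.61 ± 0.19), Col18a1 (0.85 ± 0.09), Col5a1 (1.94) and the fibrillar collagen Col1a1 (0.91) rose. Col1a2 (-0.03), the partner chain of Col1a1, and Col3a1 (-0.07) were not called. Among matricellular genes, Ccn2 (0.98 ± 0.11), Ccn1 (1.04), Ccn4 (1.47) and Sparc (0.58) rose, with Fbln2 (fibulin 2) at 1.57 ± 0.15. The basement membrane linker Nid2 fell (-0.87 ± 0.06).

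Enzymes that process collagen rose in 12 of 20 cases, with 1 fall and a median of 0.42. Plod2, a lysyl hydroxylase that sets collagen crosslinks, read 8.97, 9.44 and 9.27 in the controls and 11.53, 11.17 and 11.72 with TGF-b1 and rose by 2.25 ± 0.20 (adjusted p = 1.61e-05). Its groups were well apart. Plod1 rose by 0.66 ± 0.07, Plod3 by 0.52, the prolyl hydroxylases P4ha2 by 0.56 and P3h1 by 0.44 ± 0.07, the collagen chaperone Serpinh1 by 0.51, the transglutaminase Tgm2 by 0.74 ± 0.13 and the lysyl oxidases Loxl1 and Loxl4 by 0.40 and 0.63. Lox itself stood at -0.04 and was not called. The enhancers of procollagen cleavage moved apart, since Pcolce2 rose (1.28 ± 0.20) and Pcolce fell (-1.29 ± 0.15).

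Among 31 laminins and integrins, 9 rose (29%, against 13.2% of all genes) and 3 fell (9.68%, against 17.5%), with a median of 0.05. The fibronectin receptor chain Itga5 read 6.89, 6.97 and 6.89 in the controls and 8.31, 8.15 and 8.48 with TGF-b1 and rose by 1.40 ± 0.09, or by 0.83 with all probe sets averaged. Every TGF-b1 array was higher. The integrins Itgb5 (1.08 ± 0.11), Itgav (0.52 ± 0.07), Itgb3 (0.50 ± 0.10) and Itgb1 (0.58) and the hyaluronan receptor Cd44 (0.64 ± 0.12) rose. Itga6, the laminin receptor chain of epithelium, fell by 0.95, while its partner Itgb4 (-0.16) was not called.

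Of 46 matrix proteases and inhibitors, 15 rose and 3 fell, with a median of 0.09. The membrane collagenase Mmp14 rose by 1.02 ± 0.07, the stromelysin Mmp10 by 1.08 ± 0.12, the inhibitor Timp1 by 1.07 ± 0.13, Adam12 by 0.70 and the lysosomal cathepsins Ctsl, Ctsd and Ctsb by 0.75 ± 0.07, 0.61 ± 0.09 and 0.58. Ctsz fell (-0.34 ± 0.07). Mmp2 (-0.08), Mmp3 (0.13) and the plasminogen activator Plau (0.18) were not called. The falls numbered 1 without TGF-b1 array 1.

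Among 68 growth factor and receptor genes 24 fell (35.3%, against 17.5% of all genes) and 16 rose (23.5%, against 13.2%), with a median of 0.03. The risen ligands included Pdgfb (1.84 ± 0.21) and Pdgfa (1.48), which act on fibroblasts, and Vegfc (1.54 ± 0.17) and Vegfa (0.61), which act on vessels, whereas Vegfb (-0.55) and Vegfd (-0.39) fell. Pdgfb read 9.90, 10.63 and 9.99 in the controls and 12.07, 11.82 and 12.16 with TGF-b1, and its groups did not overlap. Jag1, a Notch ligand, rose by 1.16 ± 0.11 and Notch2 by 0.86, while the receptor Notch1 (-1.40 ± 0.14) and the Notch targets Hey1 (-0.74) and Hes1 (-0.56) fell. Egfr rose by 0.77 and Igf1r by 0.91 ± 0.09, whereas the related receptors Erbb2 (-0.22) and Erbb3 (-0.70), the ligands Tgfa (-0.83 ± 0.10), Btc (-0.67) and Ereg (-0.59), and the adaptor Irs1 (-0.84) fell. In the fibroblast growth factor system the falls included the receptors Fgfr2 (-1.48 ± 0.19) and Fgfr3 (-0.60), the ligand Fgf1 (-1.18 ± 0.14), its carrier Fgfbp1 (-2.30) and the feedback inhibitors Dusp6 (-1.61 ± 0.17), Spry1 (-0.81) and Spry2 (-0.83). Fgf2 (0.01), Fgfr1 (0.12) and Spry4 (-0.03) were not called. Averaging all probe sets gave -0.33 for Tgfa and 0.59 for Igf1r.

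Cytokine and chemokine genes were split evenly, with 12 of 54 risen and 12 fallen and a median of 0.06. Each count is 22.2% of the list, against 13.2% of all genes risen and 17.5% fallen. Apart from Il11 and Ptgs2, Ccl7, a monocyte chemokine, rose by 2.25 ± 0.28, Lif, another gp130 cytokine, by 1.58, the macrophage factor Csf1 by 1.06 ± 0.16 and Il6 by 0.67 ± 0.11. Apart from Il33, Cxcl5 and Ccl20, the neutrophil chemokines Cxcl1 (-2.23 ± 0.35) and Cxcl2 (-0.63 ± 0.09) and the acute phase gene Saa3 (-1.65 ± 0.12) fell. Socs3 stood at -0.56 and was not called (adjusted p = 0.0913). Of 37 interferon response genes 5 rose (13.5%, against 13.2% of all genes) and 3 fell (8.11%, against 17.5%), or 5 with the replicate number as a block, with a median of 0.00. The risen included the antigen presentation genes B2m (0.88 ± 0.10) and Tapbp (0.80 ± 0.12), and the fallen Ifit2 (-0.64 ± 0.06) and Ifit3 (-0.52 ± 0.10). Mx1 (-0.07), Irf7 (0.01) and Stat2 (-0.04) were not called.

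**Figure D4:**
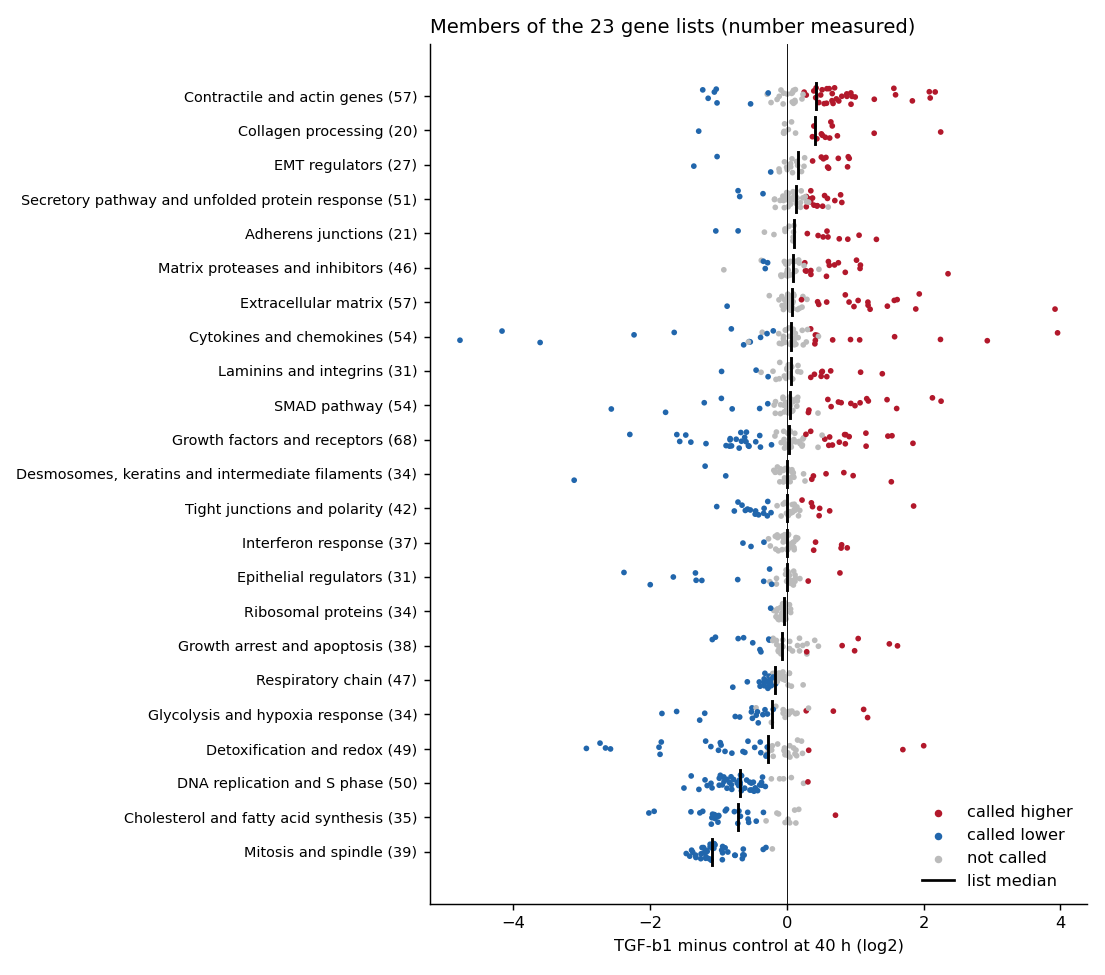
Change of every measured member of 23 gene lists after 40 h of TGF-b1. Each point is 1 gene, placed by its change (TGF-b1 minus control, log2), coloured by its call, and black bars are list medians. Medians run from 0.42 for contractile and actin genes to -1.09 for mitosis and spindle genes, where 38 of 39 points are called lower.

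Cell division genes were lower nearly throughout. Of 39 genes of mitosis and the spindle, 38 fell and 0 rose (limma; also 0 higher at an unadjusted p under 0.05), with a median of -1.09, and Foxm1 (-0.21, adjusted p = 0.0892) was the one not called. Ccnb2 (cyclin B2), which starts mitosis with Cdk1, read 11.11, 11.07 and 11.26 in the controls and 9.75, 9.64 and 9.78 with TGF-b1 and changed by -1.42 ± 0.09 (adjusted p = 2.69e-06). Mad2l1, of the spindle checkpoint, read 12.02, 11.73 and 11.96 in the controls and 10.53, 10.38 and 10.39 with TGF-b1 and changed by -1.47 ± 0.09. In both genes all 3 TGF-b1 arrays were at least 1 below the lowest control. Ccna2 changed by -1.14 ± 0.07, the checkpoint kinases Ttk and Bub1 by -1.17 ± 0.07 and -1.24, the cytokinesis gene Anln by -1.12 ± 0.07, Aurkb by -1.33, Mki67, the antigen of cycling cells, by -1.26 and Cdk1 by -0.94.

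Of 50 genes of DNA replication and S phase, 44 fell and 1 rose, with a median of -0.68. Tk1, the thymidine kinase of S phase, read 10.96, 10.66 and 10.65 in the controls and 9.42, 9.14 and 9.20 with TGF-b1 and changed by -1.51 ± 0.11 (adjusted p = 4.52e-06). The groups were clearly apart. DNA ligase Lig1 changed by -1.40 ± 0.08, the clamp loader subunits Rfc4 and Rfc5 by -1.29 ± 0.09 and -1.11 ± 0.08, the primase Prim1 by -1.20 and the sliding clamp Pcna by -0.49. Every Mcm helicase gene of the list that was measured fell, from -0.99 for Mcm3 to -0.43 for Mcm2. Ccnd1 (-0.54) and Ccnd2 (-0.66) fell, while Ccnd3 was the gene that rose (0.31 ± 0.07). Ccne1 (0.24), E2f1 (-0.11), Cdk4 (-0.05), Cdk6 (0.07) and Tyms (-0.23) were not called.

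Promoters of replication genes are known for E2F sites, and those of mitosis genes for CCAAT boxes and the cell cycle homology region (CHR), TTTGAA. The E2F letters TTTNNCGC lay in 17 of 44 windows (38.6%) of the fallen replication genes and in 5.17% of all windows. In the fallen mitosis genes CCAAT lay in 29 of 36 windows (80.6%, against 37.4% of all) and TTTGAA in 28 (77.8%, against 17.9%). Both strands were searched, and a match describes letters in the window only. The lists hold genes already known for such sites, and list members that were not called were not counted apart. A link of these letters to the TGF-b1 change was not tested. Windows of Uhrf1 (chr17:56303087-56303386, plus strand), which recruits DNA methyltransferase at replication forks, and Mcm3 (chr1:20820263-20820562, minus strand), a helicase subunit, are shown with the E2F letters in capitals.
Uhrf1: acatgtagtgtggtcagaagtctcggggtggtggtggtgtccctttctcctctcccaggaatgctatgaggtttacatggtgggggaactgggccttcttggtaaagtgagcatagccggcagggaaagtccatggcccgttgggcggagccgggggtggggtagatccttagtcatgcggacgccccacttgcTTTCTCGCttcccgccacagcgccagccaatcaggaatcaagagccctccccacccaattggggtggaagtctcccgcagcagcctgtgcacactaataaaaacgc
Mcm3: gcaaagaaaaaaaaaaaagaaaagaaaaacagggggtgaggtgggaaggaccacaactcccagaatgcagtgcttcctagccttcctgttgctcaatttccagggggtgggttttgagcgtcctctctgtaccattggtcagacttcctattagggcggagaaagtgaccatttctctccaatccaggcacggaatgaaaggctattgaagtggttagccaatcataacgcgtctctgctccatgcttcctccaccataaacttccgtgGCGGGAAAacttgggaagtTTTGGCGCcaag
Windows of Ccnb2 (chr9:70421505-70421804, minus strand) and Cdc20 (chr4:118437294-118437593, minus strand), the activator of the anaphase ligase, which changed by -1.19, are shown with both motifs, on either strand, in capitals.
Ccnb2: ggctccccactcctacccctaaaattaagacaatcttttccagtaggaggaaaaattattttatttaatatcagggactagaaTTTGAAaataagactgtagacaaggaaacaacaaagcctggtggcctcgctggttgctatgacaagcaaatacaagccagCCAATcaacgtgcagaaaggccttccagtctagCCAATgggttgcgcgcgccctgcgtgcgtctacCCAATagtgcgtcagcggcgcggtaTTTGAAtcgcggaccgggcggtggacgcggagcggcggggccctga
Cdc20: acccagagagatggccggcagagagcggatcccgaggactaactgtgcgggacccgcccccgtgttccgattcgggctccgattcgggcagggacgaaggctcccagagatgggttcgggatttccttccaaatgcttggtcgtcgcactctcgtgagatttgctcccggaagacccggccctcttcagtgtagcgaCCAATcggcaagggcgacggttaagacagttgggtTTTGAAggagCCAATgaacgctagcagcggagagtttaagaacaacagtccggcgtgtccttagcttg

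Of 38 genes of growth arrest and apoptosis 6 rose (15.8%, against 13.2% of all genes) and 9 fell (23.7%, against 17.5%). The median was -0.07, and with the replicate number as a block 12 rose. Cdkn2b, a classical TGF-b target, stood at 0.29 (adjusted p = 0.295), Cdkn1a at -0.06 and Cdkn1b at -0.20, none of them called. Cdkn2c (-1.09 ± 0.08) and Cdkn2d (-1.04 ± 0.08) fell. The stress genes Gadd45g (1.62 ± 0.13), Gadd45b (1.5) and Gadd45a (0.99 ± 0.21) rose, as did the death-promoting genes Pmaip1 (1.04 ± 0.20) and Bcl2l11 (0.81 ± 0.11, or 0.52 with all probe sets averaged). The survival gene Bcl2l1 fell (-0.71 ± 0.08, or -0.27 with all probe sets averaged). Myc stood at 0.23 and was not called.

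Of the genes of lipid synthesis, 25 of 35 of cholesterol and fatty acid synthesis fell and 1 rose, with a median of -0.72. Elovl6, a fatty acid elongase, read 9.80, 9.35 and 9.83 in the controls and 7.77, 7.61 and 7.78 with TGF-b1 and changed by -1.94 ± 0.14 (adjusted p = 4.85e-06). All its TGF-b1 arrays were below its controls by more than 1. The desaturase Scd1 changed by -2.02, and along the sterol pathway Hmgcs1 changed by -1.01, Idi1 by -1.40, Fdft1 by -1.27, Lss by -1.10 ± 0.15 and Cyp51 by -1.23. The regulators Srebf1 (-0.68) and Srebf2 (-0.57) fell too. Fasn (-0.15), Acaca (-0.03) and Acly (0.04), enzymes of the core of fatty acid synthesis, were not called. The sterol element letters TCACNCCAC lay in 1 of 26 windows (3.85%) of the fallen genes, that of Hmgcs1, and in 1.24% of all.

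Of 34 genes of glycolysis and the hypoxia response, 16 fell and 4 rose, with a median of -0.21. The prolyl hydroxylase Egln3 read 8.73, 8.18 and 9.21 in the controls and 6.90, 6.87 and 6.87 with TGF-b1 and changed by -1.83 ± 0.19. The groups did not overlap. Pdk1, a kinase that inhibits pyruvate dehydrogenase, changed by -1.61 ± 0.22, the lactate carrier Slc16a1 by -1.20 ± 0.10, Ldha by -0.69 ± 0.07 and Pgk1 by -0.51 ± 0.08. The hexokinase Hk2 (1.2) and Pfkfb3 (1.12 ± 0.19), which activates phosphofructokinase, rose. With all probe sets averaged Pfkfb3 was 0.66. Of 47 respiratory chain genes 20 fell and 0 rose (limma; also 0 higher at an unadjusted p under 0.05), with a median of -0.17. Without control array 3 or without TGF-b1 array 1, 13 fell, and with the replicate number as a block 1 rose. These changes were small, and Ndufa5 had the largest at -0.79 ± 0.08.

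Secretory pathway genes were higher in 16 of 51 cases and lower in 3, with a median of 0.14, 9 rose without TGF-b1 array 3, and 1 fell without control array 3 or without TGF-b1 array 1. The coat genes Sec24d (0.70 ± 0.08) and Sec31a (0.59 ± 0.08), the cochaperone Dnajb9 (0.79 ± 0.09), the folding enzyme Pdia3 (0.44 ± 0.07) and Hspa5, the main chaperone of the endoplasmic reticulum (0.30), rose. The stress response genes Asns (-0.69 ± 0.13) and Herpud1 (-0.71 ± 0.19) fell, and Ddit3 (0.27) and Atf4 (-0.10) were not called. Herpud1 lost its call under other settings (adjusted p up to 0.0712).

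Detoxification and redox genes fell in 23 of 49 cases and rose in 3, or in 5 with the replicate number as a block or with quantile scaling, with a median of -0.27. Gclc, the rate-limiting enzyme of glutathione synthesis, read 12.84, 12.67 and 12.82 in the controls and 10.98, 11.37 and 10.47 with TGF-b1 and changed by -1.84 ± 0.22. All TGF-b1 arrays were below all controls. Nfe2l2 (NRF2), the regulator of antioxidant genes, changed by -0.97 ± 0.14, the cystine carrier Slc7a11 by -0.80 and the reductases Akr1c14 and Akr1c13, near copies of each other, by -1.87 ± 0.15 and -1.11 ± 0.11. Against that, Hmox1 (heme oxygenase) read 9.15, 8.99 and 8.79 in the controls and 10.81, 11.49 and 10.63 with TGF-b1 and rose by 2.00 ± 0.22. Its groups were far apart. Cyp1b1 rose by 1.70 ± 0.38, or by 1.07 with all probe sets averaged, and Nqo1 (0.13) was not called.

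Ribosomal protein genes gave the narrowest range. Their median control level of 13.91 lay near the highest value measured (14.59), where the array may understate a change. Of 34 measured, 0 rose (limma; also 0 higher at an unadjusted p under 0.05) and 1 fell (Rps25, -0.24 ± 0.08), with a median of -0.05. Rps25 lost its call under 11 of the 18 alternatives, and the count of fallen members ran from 0 to 3 (2 with the replicate number as a block). Markers of other cell types were mostly not called. Mean levels in the controls ran from 5.50 to 6.43 for endothelial, from 5.63 to 10.54 for leukocyte, from 5.39 to 7.03 for adipocyte and from 5.31 to 9.63 for fibroblast markers, and with TGF-b1 from 5.47 to 6.60, 5.63 to 9.45, 5.39 to 6.46 and 5.32 to 8.95. Over all genes 13.2% were higher and 17.5% lower. Of 8 endothelial markers 1 was higher (12.5%, Vwf, 0.26). Of 11 leukocyte markers 1 was higher (9.09%, Csf1r, 0.36) and 1 lower (9.09%, Cd14, -1.09). Of 5 adipocyte markers 1 was lower (20%, Pparg, -0.57). Of 11 fibroblast markers Col1a1 and Fap (0.26) were higher (18.2%) and S100a4 (-0.68) lower (9.09%), while Pdgfra, Pdgfrb, Thy1, Dpt, Lum and Dcn were not called. Of 9 basal and myoepithelial markers Acta2 and Cnn1 (0.76) were higher (22.2%) and Mylk lower (11.1%), and Krt5, Krt14 and Trp63 were not called. The part of such cells in the results was not tested. Of 11 markers of luminal mammary epithelium, Krt19, Cdh1 and Ehf were lower (27.3%, against 17.5% of all genes). Cldn4 was higher (9.09%, against 13.2%), and the others were not called.

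The 40 h values were set beside the change in total RNA of NMuMG cells given 5 ng/ml TGF-b1 for 2 h, which were also exposed to 4-thiouridine, an RNA label. The line, the time and the array table differ, so changes were compared and levels were not. Of the same 12393 genes, 210 (1.69%) rose and 139 (1.12%) fell at 2 h, out of 266 and 186 called over all 18193 genes of that table, or 402 and 299 with the replicate number as a block. Of the genes risen at 40 h, 149 had risen at 2 h, which is 9.07% of the 40 h and 71.0% of the 2 h rises. Of those fallen, 94 had fallen at 2 h, or 4.34% and 67.6%. A further 10 genes rose at 2 h and were lower at 40 h. This is 4.76% of the 2 h rises, against 17.5% of all genes lower at 40 h. Another 4 did the reverse (2.88% of the 2 h falls, against 13.2% of all genes higher at 40 h). These 4 were Ankrd1, Dipk2a, Ivl and Ppargc1b, which were named after their values were seen.

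Named genes called at 40 h numbered 226, of which 49 were called in the same direction at 2 h, 1 in the opposite (Snai3) and 176 not at all. Genes called at both times included Lce1f (3.49 at 2 h and 4.87 at 40 h), Il11 (2.41 and 3.96), Spsb1 (2.83 and 2.64), Pdgfb (1.89 and 1.84), Cldn4 (1.62 and 1.85), Foxq1 (1.10 and 0.89), Smad7 (1.25 and 0.94), Cxcl5 (-2.90 and -4.17), Ccl20 (-1.88 and -3.61), Bmp4 (-1.36 and -1.21) and Id3 (-1.49 and -0.80). Snai1 was called at 2 h (0.73) and stood at 0.16 at 40 h, where its signal may lie near background. Thbs1 (0.24), Fn1 (-0.03), Cdh1 (-0.07), Krt19 (-0.21), Zeb1 (0.45), Plod2 (0.36) and Tagln (0.07) were not called at 2 h. By list, 10 of 54 SMAD pathway genes rose at 2 h against 15 at 40 h, and 6 of 27 transition regulators against 10. Of contractile genes 2 of 57 rose at 2 h against 32, of collagen processing genes 1 of 20 against 12, and of mitosis genes 0 of 39 fell at 2 h (limma; also 0 lower at an unadjusted p under 0.05; median -0.11, against -0.04 for all genes) against 38. Of cholesterol and fatty acid genes 1 of 35 fell at 2 h against 25. The difference between the times was not tested.

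**Figure D5:**
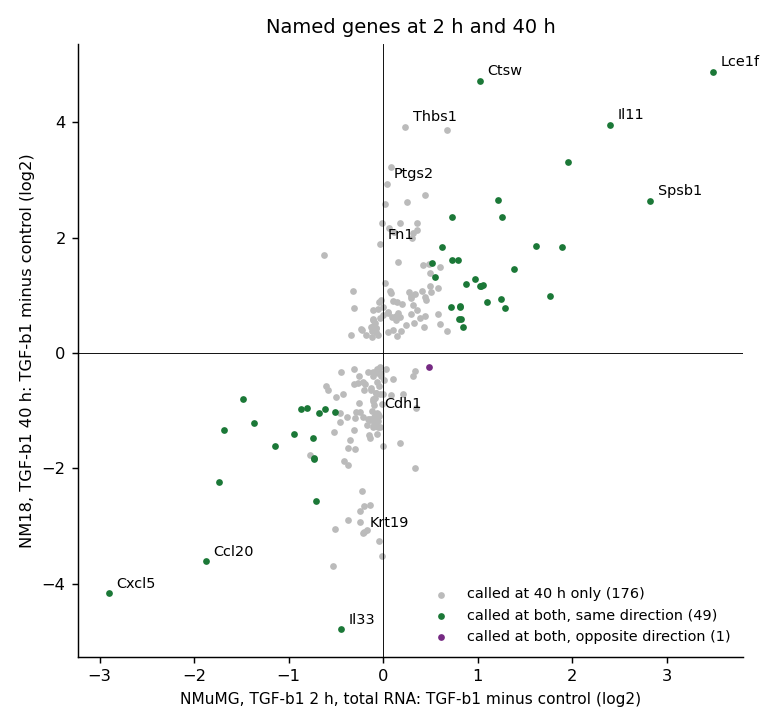
Change of the 226 named genes called at 40 h, at both times. The horizontal axis is the change in total RNA of NMuMG cells after 2 h of TGF-b1 and the vertical axis that in NM18 cells after 40 h, both as TGF-b1 minus control (log2), and colours mark the 49 genes called in the same direction at both times, the 1 called in opposite directions and the 176 called at 40 h and not at 2 h. Thbs1, Fn1, Cdh1 and Krt19 lie near 0 on the horizontal axis, while Lce1f, Il11, Spsb1, Cxcl5 and Ccl20 are displaced on both.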

How the data were processed

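Expression was measured on Affymetrix mouse arrays with 3' in vitro transcription labelling. The authors' deposited table of the NM18 cells holds 1 log2 value per probe set and array, and the log2 scale is inferred from the range of the values, since no label states it. The methods of summarisation and normalization were not given in the sources used here. The submitters' processing notes list affy 1.18.2 but not what it did. Scanner files and detection calls were not used here. Precision is limited by having 3 arrays in a group.

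Of 22690 probe sets, 20380 had 1 gene symbol in the platform annotation, 691 had several, 1555 none and 64 were controls. Those with 1 symbol were used, and each gene was represented by the one of highest mean across the 9 arrays, which gave 12393 genes. Differences were tested two-sided by lmFit and eBayes (limma 3.58.1, R 4.3.3), in 1 fit over the 3 groups of the table, with Benjamini-Hochberg adjustment over all genes. The fit was tested on simulated data with independent noise on each array, so that test does not cover the pairing of arrays described below. The 2 h comparison used the authors' deposited log2 values of NMuMG total RNA in the same way, in 1 fit over the 4 groups of its table.

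Arrays of the same number deviated together from their group means, with correlations of 0.50, 0.23 and 0.41 between the control and TGF-b1 arrays 1, 2 and 3 and 0.16 to 0.61 in the pairs with the third group. The numbers were therefore taken to pair the arrays, on the evidence of the values, since the labels do not state it. The reported values, with their standard errors and p, are from the fit without a block, which ignores this pairing. The fit with the number as a block was an alternative. For single genes it moved limma's adjusted p either way, from 0.00515 to 9.89e-06 for Cyp1b1 and from 0.000136 to 0.000298 for Il11.

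The comparison, the 23 gene lists, the marker lists and the rule for named genes were chosen with earlier results of these data known. The rule took the 15 largest rises and falls among called genes whose groups did not overlap, up to 6 members per list and direction with the smallest p, and a fixed set of transition genes. Other list members named with values were chosen after their values were seen. Alternatives were a fit of the 6 arrays alone, a replicate block, quantile and median scaling, the mean or the most variable probe set of a gene, genes above the median level, trend and robust settings of eBayes, and leaving out each array. Promoter sequences are from RefSeq, build GRCm38.p6.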

Additional observations from a re-analysis of the deposited data

Results flagged for a closer look

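In 9 of the 234 named genes all TGF-b1 arrays moved one way at 40 h in NM18 cells and all moved the other way at 2 h in total RNA of NMuMG cells, without overlap of the groups at either time. The difference between the times was not tested in any of them, since cell line, time and table differ together. Lower at 40 h and higher at 2 h were Bambi (-0.40 and 0.32), Snai3 (-0.24 and 0.48), the laminin receptor chain Itga6 (-0.95 and 0.35) and the serine protease Htra1 (-0.32 and 0.34). Higher at 40 h and lower at 2 h were Foxa1 (0.31 and -0.34), Mmp10 (1.08 and -0.32), Ccnd3 (0.31 and -0.18), Dnajb9 (0.79 and -0.31) and Snai2 (0.25 and -0.22). By limma's adjusted p, Snai3 was called at both times (0.0434 at 40 h and 0.0186 at 2 h), Snai2 at neither, and the other 7 at 40 h only. At 2 h the adjusted p of all but Snai3 lay between 0.363 and 0.738 (limma), so their direction at 2 h was not established. With 3 arrays in a group, groups can also separate completely without a real change. The same count over all genes was not made, so whether 9 exceeds the share over all genes is not known.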

How the results depend on the processing

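Counts of genes called at 40 h stayed within 1.5 times the reported 1642 and 2165 under all 18 alternatives, from 1308 to 2106 higher and from 1713 to 2679 lower. The fit with a replicate block gave the upper ends, 2106 and 2679, and changed no call of a named gene. At 2 h the replicate block gave 402 higher and 299 lower genes, and leaving out 1 array at a time gave 178 to 232 higher and 109 to 142 lower genes. Of the 226 named genes called at 40 h, 208 were called under every alternative and 18 lost their call under at least 1. The sign changed only in a pair of genes that were never called: Krt8 was 0.011 with its most variable probe set and -0.0716 to 0.045 when 1 array was left out, and Krt18 was -0.0153 to 0.136 when 1 array was left out. The cause was not tested. Of the other probe sets of named genes, 132 gave the same call, 41 were not called and 0 were called the opposite way by limma. Scaling shifted the median of all genes by at most 0.02, and the share of calls that were lower ran from 52.2% to 59.4%. Which low signals lay near background could not be read without detection calls.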

Other observations

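Apart from Snai3, 9 genes rose at 2 h in NMuMG total RNA and were lower at 40 h in NM18 cells, both by limma's adjusted p. They were the chemokine scavenger Ackr3 (1.43 at 2 h and -0.55 at 40 h), the lipolysis inhibitor G0s2 (1.52 and -0.67), the forkhead factors Foxa3 (0.70 and -0.58) and Foxd1 (0.58 and -0.25), AI661453, Fbxo31, Kcnk1, Plek2 and Plekha6. Those with the reverse order were Ankrd1, a cardiac ankyrin repeat gene known as a YAP target (-0.71 and 0.69), Ivl, the cornified envelope protein involucrin (-0.66 and 0.34), Ppargc1b, a coactivator of mitochondrial genes (-0.75 and 0.41), and Dipk2a (-0.82 and 0.35). These genes were named after their values were seen, and the difference between the times was not tested. With Snai3 included, opposite calls made up 4.76% of the 2 h rises, and they made up 2.88% of the 2 h falls. Over all genes 17.5% were lower and 13.2% higher at 40 h.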
